A study of Zea mays with 12 samples.

Results

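The difference between the effect of the *zmmsh7-2* mutation at 14 days after pollination (DAP) and its effect at 7 DAP was examined in developing maize seeds by RNA-seq. All 12 libraries of the series entered, in 4 groups of 3: mutant and wild type at 7 DAP, and mutant and wild type at 14 DAP. The labels call the mutant an MSH7 knockout made by CRISPR and mark it aa, and they mark wild type AA. They do not give the genetic background, the number of independent mutant lines or the plants behind each replicate. The p-values therefore reflect the scatter among these 12 libraries alone, and that scatter may be technical. For each gene the quantity of interest was (mutant at 14 DAP − wild type at 14 DAP) − (mutant at 7 DAP − wild type at 7 DAP) on the log2 scale, called the difference here. It is equally the change from 7 to 14 DAP in the mutant minus that change in wild type. A positive difference means that the mutant stood higher relative to wild type at 14 DAP than at 7 DAP.

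MSH7 is a plant protein of DNA mismatch repair, in which mismatched bases are recognised and replaced. A young maize seed is a tissue of dividing cells, in which the endosperm forms cell walls and multiplies. In the following days the endosperm turns to filling, when transcripts for starch synthesis and storage proteins become abundant. A mutation can therefore change transcripts by a constant factor through this transition, or by a factor that depends on the stage.

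Of 46430 identifiers in the deposited tables, 44146 were nuclear gene models, and these are described here. Of them 9435 had 0 counts in all libraries, 9553 had counts but were under the filter on low counts, and 25158 were tested. Neither the files nor the reference table used here pair any of these identifiers with a name, so their functions, the seed marker genes and MSH7 itself were not analysed here. Genes are described by their values, and few identifiers are printed. Library totals lay between 16854595 and 21932590 counts, and correlations across genes (Pearson) reached 0.989 or more for replicates, against 0.953 or less for libraries of different genotype at one stage. The biological coefficient of variation was 3.13%. The counts of each stage are in a table of their own, so stage and table cannot be told apart, and the genotype effect at each stage is a value within 1 table. In whole seeds, fewer cells of a type and less RNA per cell cannot be told apart.

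In these libraries the gap between mutant and wild type depended on the stage for many nuclear genes. The difference was called (adjusted p below 0.05) for 11841 nuclear genes, against a background of 46.8% called among all 25344 features tested. Of these, 5767 were higher, with a difference above 0 (background 22.8%), and 6074 were lower (background 24%). Scaling by library totals alone turned this order round, with 6301 higher and 5642 lower, while DESeq2 gave 5056 and 5043. The median over all nuclear genes tested was a difference of 0.00 on the log2 scale with TMM factors and 0.02 with library totals. The test was edgeR's quasi-likelihood test with Benjamini-Hochberg adjustment in a fit of all 12 libraries, and it is the source of every adjusted p below.

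Most of these differences were modest. Among called genes the median absolute difference was 0.54 on the log2 scale, which is 1.45-fold, and 5% of them were beyond 2.21. Past 2-fold there were 1194 higher (background 4.76%) and 1608 lower (background 6.39%). Past 4-fold there were 344 higher and 414 lower. When the test was made against a difference of 1.5-fold in place of 0, 2618 genes passed, 1139 higher and 1479 lower. The median standard error (SE) of the difference over all nuclear genes tested was 0.14, so that differences well under 2-fold passed the test against 0.

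**Figure D1:**
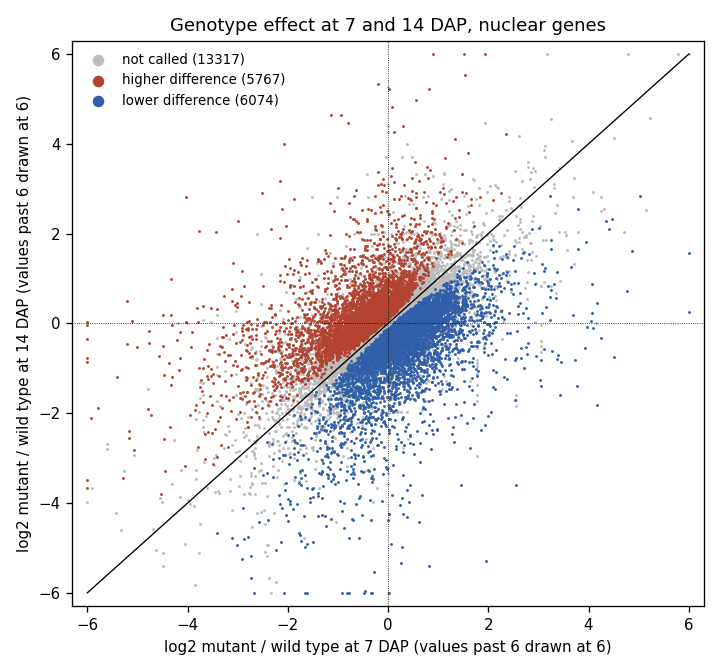
Log2 ratio of mutant to wild type at 7 DAP (x axis) and at 14 DAP (y axis), 1 point per nuclear gene tested. The diagonal marks an equal effect at both stages. The 5767 genes with a higher difference lie above it and the 6074 with a lower one below it, and effects past 6 are drawn at 6.

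The plot of both genotype effects shows the called genes on both sides of the diagonal and in all 4 quadrants, including those where the effects had opposite directions. The libraries of the stages are separate, so the axes share no library.

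A few genes, chosen among called ones for the size of their difference, show how large it could be. They are not typical of the called genes, whose median absolute difference was 0.54 on the log2 scale. Zm00001d043741 had less transcript in the mutant at the early stage and more at the late one. In counts scaled to a library of 1000000 (CPM) and by the TMM factors, it had 3.20, 3.57 and 3.54 CPM in the mutant libraries at 7 DAP, against 19.7, 20.4 and 19.2 CPM in wild type. At 14 DAP it had 11, 11.7 and 10.8 CPM in the mutant, against 1.41, 1.43 and 1.63 CPM in wild type. No library of one genotype overlapped the other at either stage, and between the stages the gene rose in the mutant and fell in wild type. Its genotype effect was −2.52 (SE 0.11, adjusted p = 5.06e-42) at 7 DAP and 2.90 (SE 0.15, adjusted p = 3.23e-35) at 14 DAP on the log2 scale, a difference of 5.43 (SE 0.19, edgeR adjusted p = 8.17e-51).

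Zm00001d027832 was lower in the mutant at both stages, and by far more at 7 DAP. It had 0.302, 0.352 and 0.354 CPM in the mutant at 7 DAP, which rest on 22 counts over 3 libraries, against 27.3, 27.6 and 27.6 CPM in wild type. At 14 DAP it had 6.21, 6.28 and 7.69 CPM in the mutant, against 10.9, 13.2 and 12.7 CPM in wild type. The mutant libraries were the lower ones at both stages, and the log2 effect was −6.33 (SE 0.16) at 7 DAP and −0.86 (SE 0.11) at 14 DAP. The difference was 5.47 (SE 0.23, edgeR adjusted p = 1.38e-42). From 7 to 14 DAP it rose by 4.30 (SE 0.22) in the mutant and fell by 1.17 (SE 0.09) in wild type on the log2 scale.

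Zm00001d012378 fell by 1.38 (SE 0.17) on the log2 scale in the mutant between the stages and rose by 3.88 (SE 0.09) in wild type. At 7 DAP it had 5.40, 5.13 and 5.23 CPM in the mutant, against 3.84, 4.13 and 5.03 CPM in wild type, and the genotype effect of 0.28 did not pass the test (SE 0.13, adjusted p = 0.0612). At 14 DAP it had 1.41, 3.14 and 1.36 CPM in the mutant, against 64.3, 62.6 and 64.9 CPM in wild type. Mutant replicate 2 was above the other mutant libraries, and all 3 were far below wild type. The difference was −5.26 (SE 0.19, edgeR adjusted p = 4.88e-41). With each library left out in turn, it lay between −5.79, without mutant replicate 2 at 14 DAP, and −5.03, without mutant replicate 3 at 14 DAP.

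Zm00001d030267 was close to equal at 7 DAP, with 33.9, 33.3 and 36.0 CPM in the mutant, against 38.6, 36.4 and 37.2 CPM in wild type (log2 effect −0.12, SE 0.06, adjusted p = 0.0538). At 14 DAP it had 1.86, 1.83 and 2.02 CPM in the mutant, against 29.0, 30.6 and 29.1 CPM in wild type. Between the stages it fell by 4.17 (SE 0.10) in the mutant and fell by 0.34 (SE 0.06) in wild type on the log2 scale. Its difference was −3.83 (SE 0.13, edgeR adjusted p = 1.82e-51).

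**Figure D2:**
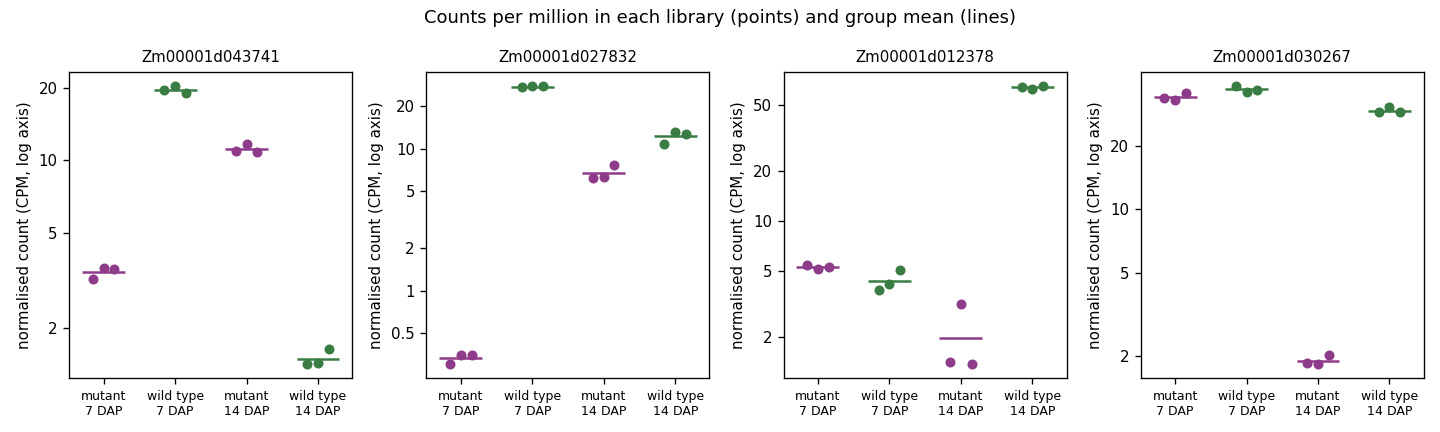
CPM (log axis) of Zm00001d043741, Zm00001d027832, Zm00001d012378 and Zm00001d030267 in each library (points) and the group means (lines), mutant left of wild type at each stage. In Zm00001d043741 the mutant lies below wild type at 7 DAP and above it at 14 DAP, and in Zm00001d012378 and Zm00001d030267 the genotypes part at 14 DAP.

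The called genes were then sorted by the genotype effects at each stage, which were called for 67.6% of all features at 7 DAP (33.5% higher and 34.2% lower in the mutant) and for 61.8% at 14 DAP (30.6% higher and 31.2% lower). The pattern of each gene is read from values that enter the difference, so these counts are a description. Effects in the same direction at both stages, with unequal size, were called for 4361 genes or 36.8% of those with a called difference. An effect called at 7 DAP alone followed, with 3263 genes or 27.6%. The genes called at 7 DAP alone were nearly even in direction, 1639 higher and 1624 lower in the mutant at 7 DAP, and with library totals only they were 1445 and 1570. The higher genes had a median log2 effect of 0.56 at 7 DAP and 0.00 at 14 DAP, and the lower ones −0.50 and 0.02. At 14 DAP the effect was under 1.2-fold for 1438 of the 1639 higher and for 1441 of the 1624 lower genes. Not being called at a stage does not show that an effect was absent there, but each of these genes passed the test of the difference itself.

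An effect called at 14 DAP alone was found for 2207 genes or 18.6%, of which 1130 were higher in the mutant and 1077 lower. With library totals only there were 1435 higher and 921 lower. The lower ones had the larger effects, with a median of −0.72 against 0.44 for the higher ones, and 413 of the lower genes had a difference past 2-fold, against 244 of the higher genes. The lower genes were also scarcer, with a median abundance of 9.13 CPM over the 12 libraries, against 18.6 CPM for the higher ones. Their sum was 28100 ± 81.4 CPM in the mutant, against 28027 ± 331 CPM in wild type at 7 DAP, and 43263 ± 72.2 CPM in the mutant, against 58567 ± 336 CPM in wild type at 14 DAP (mean ± SD, n = 3 each). At 7 DAP the effect was under 1.2-fold for 844 of the 1077 lower and 1007 of the 1130 higher genes.

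Among the 4361 genes with effects in the same direction, the effect was larger at 7 DAP in 2653 genes, 1213 of them higher in the mutant, with median log2 effects of 0.72 at 7 DAP and 0.30 at 14 DAP, and 1440 lower, with −0.91 and −0.39. It was larger at 14 DAP in 1708 genes, 577 of them higher, with 0.31 at 7 DAP and 0.75 at 14 DAP, and 1131 lower, with −0.51 and −1.13. In both sets the genes lower in the mutant were the more numerous with TMM factors. With library totals only there were 1477 higher and 1178 lower among those larger at 7 DAP, and 917 higher and 913 lower among those larger at 14 DAP.

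Opposite effects, called at both stages, were found for 1880 genes or 15.9%. Of these, 956 were higher in the mutant at 7 DAP and lower in it at 14 DAP, with median log2 effects of 0.42 and −0.42, and 924 were lower at 7 DAP and higher at 14 DAP, with −0.33 and 0.30. With library totals only the balance turned, to 832 and 1128. In 1628 of the 1880 genes the libraries of the genotypes did not overlap at either stage. That held for 48.6% of all nuclear genes tested, and among genes with effects in the same direction for 2481 of 2653 and 1633 of 1708, and all of these genes had been required to have a called effect at both stages. Most of the reversals were small, since 47 genes of the first kind and 33 of the second changed by more than 2-fold at each stage, and 172 and 115 by more than 1.5-fold at each.

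**Figure D3:**
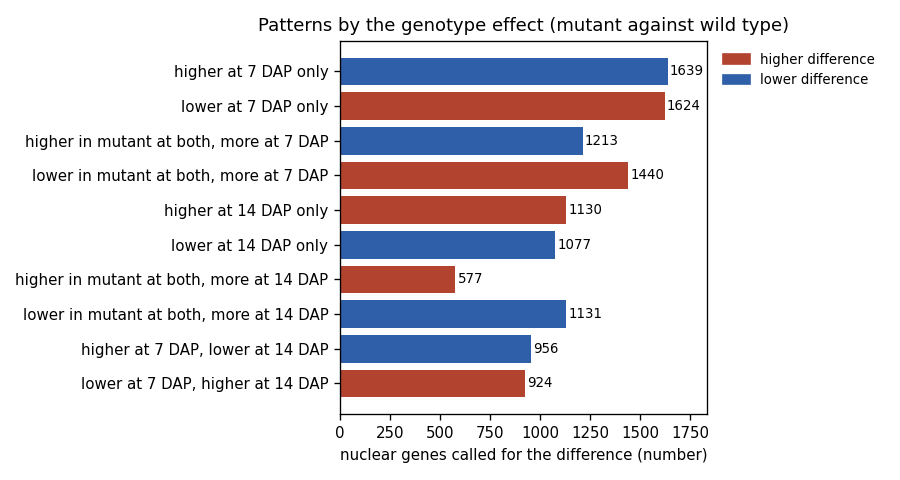
Number of nuclear genes with a called difference, by the direction of the genotype effect (mutant against wild type) and the stage at which it was called or larger. Bars run from 577 genes higher in the mutant at both stages and more so at 14 DAP to 1639 genes higher at 7 DAP only. The 130 genes without a called genotype effect at either stage are not drawn.

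Summed over the genes of a pattern, the transcripts varied little between libraries of a group. The 956 genes higher in the mutant at 7 DAP and lower at 14 DAP held 73233 ± 286 CPM in the mutant, against 57318 ± 529 CPM in wild type at 7 DAP (mean ± SD, n = 3 each). At 14 DAP they held 83665 ± 98 CPM in the mutant, against 105325 ± 401 CPM in wild type. The sum, to which abundant genes contribute most, was higher at 14 DAP in both genotypes, but the median gene of the pattern had a log2 change over time of −0.28 in the mutant and 0.54 in wild type. The 924 genes of the other kind held 50317 ± 57 CPM in the mutant, against 63548 ± 155 CPM in wild type at 7 DAP. At 14 DAP they held 61290 ± 108 CPM in the mutant, against 51414 ± 8.79 CPM in wild type, and the median gene had a change over time of 0.15 in the mutant and −0.53 in wild type. These genes were chosen by their values, so the sums are a description and carry no test.

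**Figure D4:**
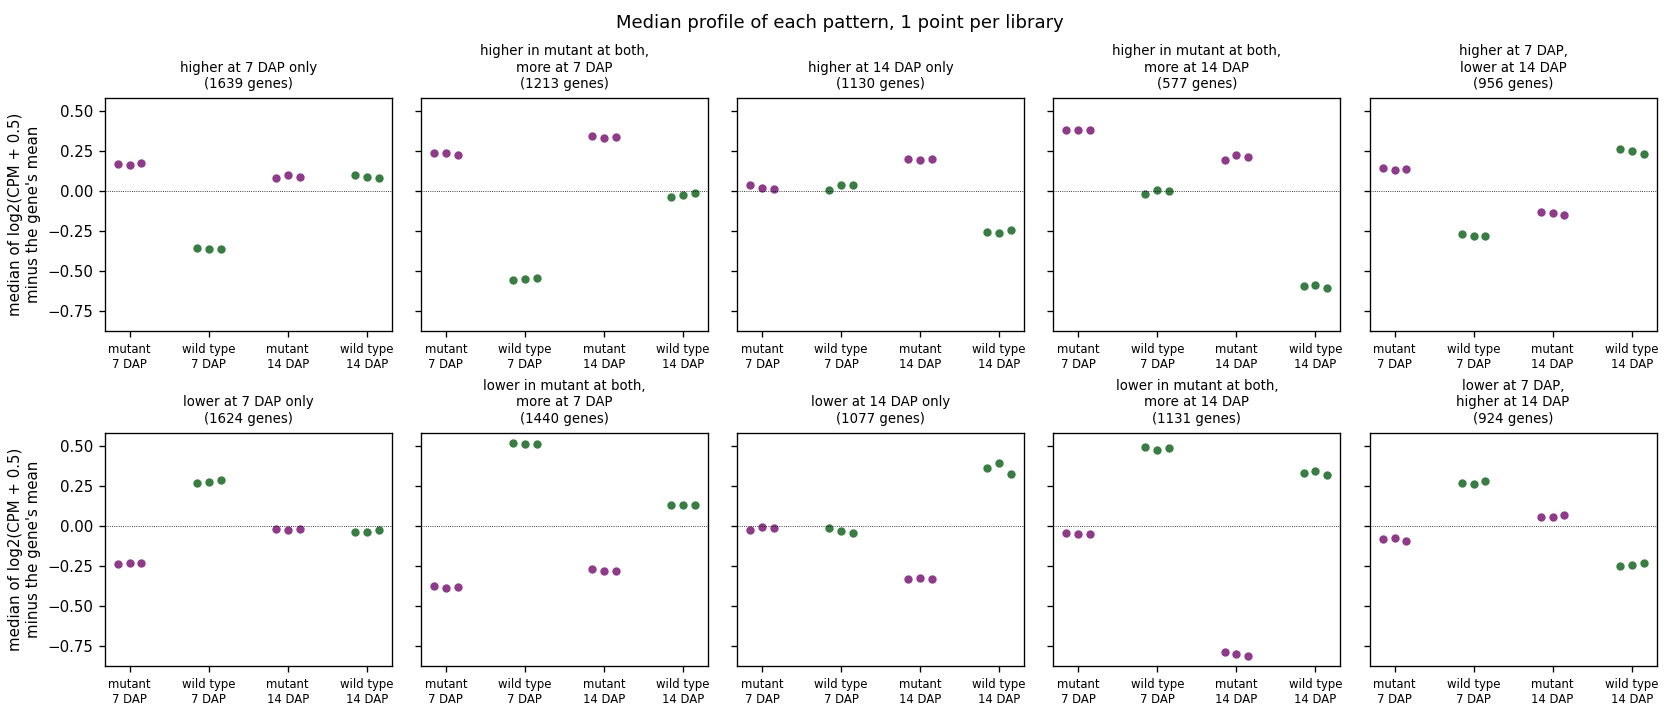
Median over the genes of each pattern of log2(CPM + 0.5) minus the gene's mean over the 12 libraries, 1 point per library, mutant left of wild type at each stage. In the 956 genes higher at 7 DAP and lower at 14 DAP, the mutant libraries lie between 0.13 and 0.14 at 7 DAP and between −0.15 and −0.13 at 14 DAP, while wild type lies between −0.28 and −0.27 at 7 DAP and between 0.23 and 0.26 at 14 DAP.

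The profiles of the patterns are a description, since the genes were sorted by the same genotype effects that the profiles draw. In both opposite patterns the wild-type medians lay farther from 0 than the mutant medians at each stage. In the patterns called at 7 DAP only, the wild-type libraries at 7 DAP stood apart from the mutant libraries of that stage, and the genotypes lay close together at 14 DAP.

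The same difference can be read as unequal change from 7 to 14 DAP in the genotypes. Changes over time were called for 78.8% of all features in the mutant (39.3% rising and 39.6% falling) and for 80.5% in wild type (40.8% rising and 39.8% falling), from libraries that the genotypes do not share. Of the 11841 genes, 3258 or 27.5% changed in the same direction in both genotypes and by more in the mutant, and 3999 or 33.8% by more in wild type. In the set that changed more in the mutant, 1555 rose and 1703 fell. In the set that changed more in wild type, 1975 rose and 2024 fell. Genes that changed more in wild type were thus the more numerous among both rising and falling genes. They were also the more numerous with library totals only, where 1132 genes rose more in the mutant and 1268 in wild type, and 2201 fell more in the mutant and 3113 in wild type. Library totals moved the median change over time of all nuclear genes to −0.30 in the mutant and −0.31 in wild type, so the split into rising and falling genes depends on the scaling.

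The sizes of these changes can be compared. Genes that rose more in the mutant had median log2 changes of 1.10 in the mutant and 0.65 in wild type, and those that rose more in wild type had 0.72 in the mutant and 1.25 in wild type. Genes that fell more in the mutant had medians of −1.34 in the mutant and −0.69 in wild type, and those that fell more in wild type had −0.69 in the mutant and −1.25 in wild type. The 1975 genes that rose more in wild type held the largest sum of these 4 sets at 14 DAP, 227327 ± 277 CPM in the mutant, against 250771 ± 443 CPM in wild type (mean ± SD, n = 3 each). At 7 DAP they had held 101302 ± 83.2 CPM in the mutant, against 82562 ± 206 CPM in wild type, so the order of the genotypes was the reverse. A shift towards wild type follows from how these genes were chosen. Like every sum over a pattern here, these sums are a description and carry no test.

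A change over time was called in 1 genotype alone for 1527 genes in the mutant, of which 674 rose and 853 fell, and for 1860 genes in wild type, of which 908 rose and 952 fell. The 853 genes that fell in the mutant alone had a median log2 change of −0.68 in the mutant and 0.01 in wild type, and the 908 that rose in wild type alone had −0.01 in the mutant and 0.69 in wild type. In 1144 genes the genotypes changed in opposite directions, 532 rising in the mutant and falling in wild type and 612 falling in the mutant and rising in wild type. Past 2-fold in each genotype there were 35 and 51 such genes. Zm00001d043741 and Zm00001d027832 are among the 35, and Zm00001d012378 is among the 51. The 532 genes that rose in the mutant and fell in wild type had 22268 ± 17.9 CPM in the mutant, against 35065 ± 220 CPM in wild type at 7 DAP, and at 14 DAP they had 27280 ± 13.1 CPM in the mutant, against 26314 ± 168 CPM in wild type (mean ± SD, n = 3 each).

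**Figure D5:**
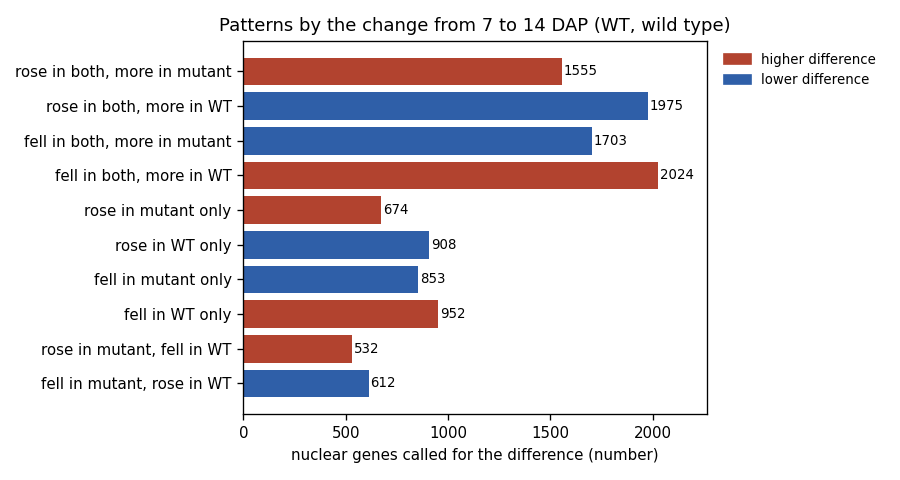
Number of nuclear genes with a called difference, by the direction of the change from 7 to 14 DAP and the genotype in which it was called or larger. Fewer genes changed more in the mutant than in wild type, among rising genes (1555 against 1975) and among falling genes (1703 against 2024), and 53 genes called in neither genotype are not drawn.

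Large effects limited to 1 stage were few. Among the called genes, an effect past 4-fold at 7 DAP with less than 1.5-fold at 14 DAP was found for 56 genes higher and 104 lower in the mutant. An effect past 4-fold at 14 DAP with less than 1.5-fold at 7 DAP was found for 66 higher and 134 lower. These genes were mostly scarce. The 134 had a median abundance of 1.84 CPM, and 20 of them reached a mean of 10 CPM over the 12 libraries. By the change over time, 47 genes rose and 89 fell past 4-fold in the mutant while changing less than 1.5-fold in wild type, and 58 rose and 67 fell past 4-fold in wild type while changing less than 1.5-fold in the mutant.

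How often the difference was called depended on abundance. With the nuclear genes tested ranked by their mean log2 CPM over the 12 libraries into 4 equal groups, 25.2% of the least abundant were called, 43.2% of the second group, 54.8% of the third and 65.1% of the most abundant. The median SE of the difference went the other way, at 0.53, 0.19, 0.10 and 0.06 on the log2 scale in the same order. Differences past 2-fold numbered 604 higher and 790 lower in the least abundant group and 90 and 117 in the most abundant. A mean of log2 values is lowered by a group with few counts, so the ranking was repeated by mean CPM, an alternative chosen after seeing the data, which gave 563 and 772 in the least abundant group and 112 and 141 in the most abundant. In the least abundant group 687 differences were higher and 896 lower. In the most abundant group 2131 were higher and 1964 lower, and both orders were the same with library totals only (724 and 873, and 2370 and 1780).

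Among the most abundant transcripts at 14 DAP, lower differences were called more often than higher ones, though the median difference was −0.02 on the log2 scale. Of the 100 nuclear genes most abundant at 14 DAP, all above 715 CPM on average at that stage, 19 had a higher difference, 42 a lower one and 39 were not called. Among all features 22.8% were higher and 24% lower, but calls depended on abundance. In the most abundant of the 4 groups above, 33.9% were higher and 31.2% lower. Against that group, higher differences were fewer among the 100 genes and lower ones more frequent. With library totals only there were 21 higher and 40 lower. Of these genes 4 were higher and 4 lower past 2-fold, with differences between −2.76 and 2.86. In 22 of the 100 the genotype effect had opposite directions, of which 16 were higher in the mutant at 7 DAP and lower in it at 14 DAP. Among all nuclear genes tested, 3.8% had that pattern and 7.47% either opposite pattern. An opposite pattern needs a call at each stage and of the difference, and the difference was called more often in abundant genes. These shares are therefore not those of equally abundant genes, which were not examined. Of the 100 most abundant at 7 DAP, 39 had a higher difference and 45 a lower one. Opposite directions were found in 26 of those 100, of which 16 were higher in the mutant at 7 DAP and lower in it at 14 DAP. Opposite patterns were thus not particular to the genes most abundant at 14 DAP. Beside this, the 20 most abundant transcripts of a library held between 12.01% and 12.22% of counts in the mutant at 14 DAP and between 14.03% and 14.47% in wild type, and their part in these counts was not tested.

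The difference on the log2 scale compares ratios, and a gene that changes greatly in level can differ in ratio without differing in the same way in amount. On the linear CPM scale 287 of the 5767 genes with a higher difference, 4.98%, had the opposite sign, and 465 of the 6074 with a lower one, 7.66%. For Zm00001d043741 the linear difference was 26 CPM and for Zm00001d012378 it was −62.9 CPM, the same directions as on the log2 scale.

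Not all genes allowed the comparison. In 264 nuclear genes tested, at least 1 group had 0 counts in all 3 libraries, so that the ratio at that stage is a bound or is undefined, and 51 of these were called with fitted values that are no bound. Without them 1165 genes were higher and 1586 lower past 2-fold, and past 8-fold 85 were higher and 118 lower, against 114 and 140 with them. A further limit is that 290 genes passed the filter on low counts through the libraries of 1 group alone. Of these, 24.5% were called, against 47.3% of the others, so this selection added 71 calls to the total, 33 higher and 38 lower.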

How the data were processed

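The authors deposited raw counts of reads for each gene, with each stage in its own table. The submitters' processing notes name the build B73 RefGen_v4 and the tools HISAT2 2.2.1, StringTie 1.3.6, DESeq2, featureCounts 1.6.4 and Trimmomatic 0.39. Neither strand nor multiply aligned reads are mentioned in the sources used here, so counts of near-identical or overlapping genes are uncertain. Columns were matched to samples by the labels' descriptions and the tables were joined by identifier. In R 4.3.3, edgeR 4.0.16 was run with its default filter by group (a minimum count of 10), TMM factors, robust dispersions and 1 coefficient per group, over all features. The genotype effects, the changes over time and their difference are contrasts of this fit, and the difference alone was tested on simulated data. CPM use the TMM factors, and each SE is the absolute log2 value divided by the square root of F. Total counts ranged from 16854595 to 21932590 per library. Without names for nuclear identifiers, planned gene lists were not run, and 4 identifiers were taken by a rule. In each direction it took the largest difference among called genes with at least 10 counts in every library and non-overlapping genotypes in opposite directions at the stages. It then took the largest among other called genes with a mean of at least 10 CPM. The set of genes, the lists and the rule were chosen with earlier results of these data known. Alternatives were RLE factors, library totals, no filter or a stricter one, DESeq2 1.42.0, replicate blocks, an adjusted p below 0.01, a test against 1.5-fold, the linear scale and leaving out each library.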

Additional observations from a re-analysis of the deposited data

Results flagged for a closer look

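The 4 identifiers taken by the rule were drawn from genes already called for the difference, so their passing that test was fixed by the choice. The difference on the log2 scale was 5.43 for Zm00001d043741 and 5.47 for Zm00001d027832. It was −5.26 for Zm00001d012378 and −3.83 for Zm00001d030267, whose genotype effects did not pass the test at 7 DAP. In all 4 the libraries of the genotypes did not overlap at either stage, which the rule had required of Zm00001d043741 and Zm00001d012378.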

How the results depend on the processing

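The number of nuclear genes with a called difference stayed within 1.5 times of 11841 with RLE factors (11843), library totals (11943), no filter (11572), a stricter filter (11690), DESeq2 (10099) and an adjusted p below 0.01 (9367), and lay between 11177 and 11561 when each library was left out. The test against 1.5-fold gave 2618, of which 1139 were higher and 1479 lower. Of the main calls, 11409 were also called in the same direction with library totals and 10012 with DESeq2. Past 8-fold, no filter gave 187 higher and 226 lower and the stricter filter 74 higher. Genes whose change over time was called in neither genotype numbered 83 with no filter, and between 34 and 75 when each library was left out, the lowest without mutant replicate 3 at 14 DAP, against 53 in the main analysis, and the cause was not tested. With library totals 1268 genes rose and 3113 fell in both genotypes by more in wild type, and 917 were higher in the mutant at both stages and more so at 14 DAP. Deviations of same-numbered replicates were at most weakly correlated, between −0.01 and 0.05 over 18 pairs, but 8 of 12 libraries correlated best with their own number. A replicate block across groups gave 11853 genes and one within stages 11845. Both kept the counts of genes within 1.5 times of the main ones, though not the same. Of the 100 genes most abundant at 14 DAP, the block within stages called 27 higher, against 19 in the main analysis. The differences of the 4 identifiers, which had been chosen for their size, kept direction and call in every alternative that was run for them. Leaving out genes at 0 counts in a whole group, chosen after seeing the data, gave 11790. Ranking by mean CPM, chosen likewise, kept all 8 counts by abundance within 1.5 times. On the linear scale, 5945 of the called genes were higher and 5896 lower. Scarce genes limit the comparison, with an SE of 0.53 in the least abundant group.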

Other observations

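Of nuclear genes with at least 10 counts in each library of 1 group and 0 counts in all 9 libraries of the other groups, there was 1, Zm00001d040738, named after its values were seen. It had 0, 0 and 0 counts in the mutant and 33, 16 and 14 counts in wild type at 14 DAP, and 0 counts in all 6 libraries at 7 DAP. Against a floor of 3 counts per library, which covers counting error only, it was at least 6.69-fold lower in the mutant than in wild type at 14 DAP. Its difference between stages could not be estimated, since neither genotype had counts at 7 DAP (edgeR adjusted p = 1).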
